A study of Mus musculus with 8 samples.

Results

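Leptin receptor signalling was followed through 10 genes taken by symbol, a list chosen with earlier results of these data known. They were leptin (Lep), its receptor (Lepr), the receptor-associated transcript Leprot, the kinase Jak2 and the transcription factor Stat3. The others were the inhibitors Socs2, Socs3 and Cish, the phosphatase Ptpn1 and the adaptor Sh2b1. All 10 were found by NCBI Gene ID among the 38920 rows of each table, and all 10 were among the 27401 rows tested. The study compared gastric epithelial cells sorted from stomachs of C57BL/6 mice on a high fat diet (HFD) with those of control mice, whose titles read ND. There were 4 HFD libraries (22, 23, 26 and 27) and 4 control libraries (15-17-18, 16, 19 and 20), made from total RNA after removal of ribosomal RNA. The labels name no allele, transgene or further agent for either group, and they do not give the age or sex of the mice, the length of feeding or the sorting markers. The title of control 15-17-18 holds 3 numbers and may stand for pooled mice, which the labels do not state, so p-values measure the spread between these libraries.

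Leptin is a hormone made mainly by fat cells and, in the stomach, by gland cells of the fundus. Its receptor lacks enzyme activity of its own and signals through the kinase JAK2, which is bound to its cytoplasmic part. JAK2 phosphorylates STAT3 and STAT5, which enter the nucleus and switch on target genes, among them genes of the SOCS family, whose proteins in turn bind the receptor or JAK2 and damp the signal. The phosphatase PTP1B, encoded by Ptpn1, removes phosphate from JAK2, while the adaptor SH2B1 raises JAK2 activity.

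Values below are log2(value + 1) after each library was divided by its median ratio to the typical row, so that a difference is relative to the typical gene, unless the deposited scale is named. Each deposited table has the same total, 36.9 M, and a few rows took a large part of it in some libraries: the 20 most abundant rows of control 15-17-18 held 85.7% of its total and those of control 19 held 59.1%, against 27.8% to 43.1% in the other 6. The scaling factors were 0.206 for control 15-17-18, 0.793 for control 19 and 1.17 to 1.59 for the others, and on the deposited scale the median tested row was 0.90 higher in HFD, against 0.12 after scaling. Depth estimated from the worth of 1 read lay between 31.4 and 46.0 M reads for HFD and between 16.4 M (control 19) and 63.2 M for control libraries. The most frequent low value lay well above this unit in HFD 26, HFD 27, control 15-17-18 and control 20, and next to it in the others. The unit may thus stand for less than 1 read in some libraries, which was not tested. Depths and multiples of the unit are therefore rough and may not compare between libraries. HFD 23 was the least like the others, with Spearman correlations over all rows of 0.845 to 0.896, against 0.910 to 0.980 for pairs without it. Epithelial markers (Epcam, Cdh1, Krt8, Krt18, Krt19 and Cldn18) summed to between 16.89 and 17.24 in HFD and between 16.90 and 17.36 in control libraries, and the defining genes of chief and parietal cells were above 0 in all 8. Of these epithelial markers Epcam lay wholly higher in HFD, as for 4.76% of all rows. Cdh1 lay wholly lower, as for 3.09%, and Krt8, Krt18, Krt19 and Cldn18 overlapped.

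The promoter windows of 2 inhibitor genes are given because Socs3 alone of the 9 members with a window held a STAT motif, and Cish was the 1 member whose groups did not overlap after scaling. The motif searched was TTCNNNGAA, the core bound by STAT dimers, which reads the same on both strands. The 250 bases before each RefSeq start (GRCm38.p6, the assembly of mm10) were searched, for 9 of the 10 members and 11 windows. The motif was present in 1 member window, of Socs3, with its first base at position -154 from that start, and in 7.02% of 32851 windows of the same length over all genes. The form with 4 bases between TTC and GAA was present in 0 member windows and in 5.85% of all windows. Both windows below lie inside the gene spans of GENCODE M21, since the RefSeq starts used are downstream of the outermost GENCODE starts. The Socs3 window also lies inside the RefSeq span of its gene, which reaches 117970336 on the minus strand. Its position is thus counted from an inner RefSeq start and not from the outermost one. In the lines below capitals mark the motif, and the Cish window has no match.
Socs3, chr11:117969367-117969616, minus strand: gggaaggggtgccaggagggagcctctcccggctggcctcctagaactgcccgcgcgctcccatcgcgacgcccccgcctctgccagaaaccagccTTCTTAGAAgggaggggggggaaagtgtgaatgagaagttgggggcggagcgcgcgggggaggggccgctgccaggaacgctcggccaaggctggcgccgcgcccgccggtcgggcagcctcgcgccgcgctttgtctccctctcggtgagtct
Cish, chr9:107296409-107296658, plus strand: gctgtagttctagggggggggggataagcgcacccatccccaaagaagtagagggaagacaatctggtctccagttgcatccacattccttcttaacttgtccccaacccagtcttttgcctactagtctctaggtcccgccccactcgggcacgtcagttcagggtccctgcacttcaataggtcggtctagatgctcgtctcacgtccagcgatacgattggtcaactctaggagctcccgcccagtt
A match is a stretch of letters and not a measured binding site, and the lack of one says only that these letters are not in this window.

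Per length, the members fell into a group of 8 well-measured genes and a pair near the floor. Levels per kilobase of exon, on the log2(value per kb + 1) scale, were highest for Leprot, at 9.20 ± 0.29 (SD over 8 libraries), followed by Stat3 at 8.20 ± 0.13, Sh2b1 at 8.05 ± 0.14 and Jak2 at 7.69 ± 0.12. Stat3 and Sh2b1 were not ordered the same way in every library, with Stat3 above Sh2b1 in 6 of 8. The brakes came next: Ptpn1 at 7.47 ± 0.29, Socs3 at 7.08 ± 0.36, Cish at 6.76 ± 0.35 and Socs2 at 6.07 ± 0.18. Jak2 stood above Ptpn1, Ptpn1 above Socs3 and Socs3 above Cish in 7 of 8 libraries each, so these neighbours overlapped, whereas Cish stood above Socs2 in all 8. Lepr, at 1.67 ± 0.48, lay 4.41 ± 0.63 below Socs2 on this scale, and Lep, at 0.46 ± 0.49, was the lowest.

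**Figure D1:**
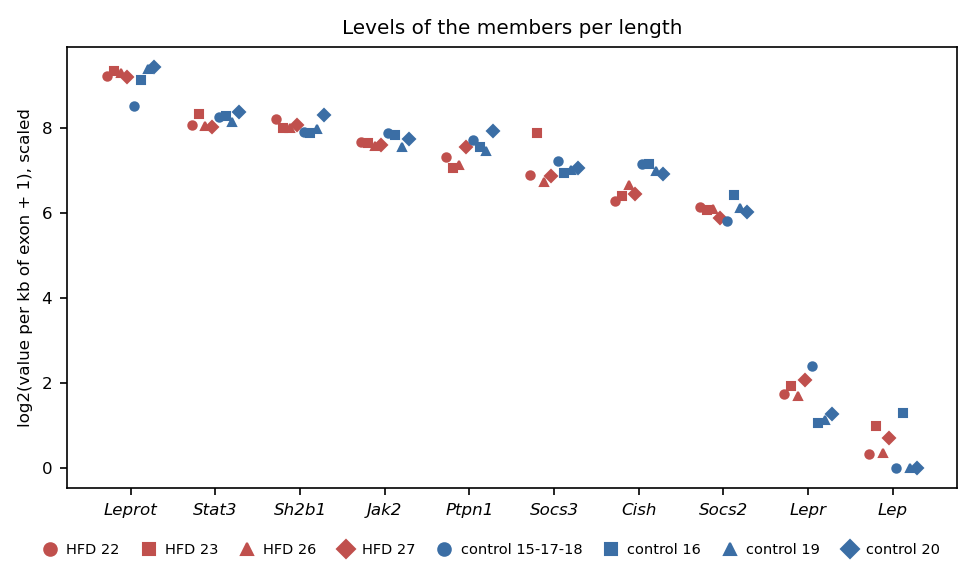
Level of each member per kilobase of exon (vertical axis, log2 of scaled value per kb plus 1) in the 4 HFD (red) and 4 control (blue) libraries, 1 point per library. The 8 members from Leprot to Socs2 lie at 5.82 or above, and Lepr and Lep lie at 2.40 or below.

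None of the 10 members was called between the diets after adjustment over all tested rows (limma, Benjamini-Hochberg), against 0.0109% of all rows called in either direction, 0.00365% higher and 0.0073% lower. At an unadjusted p under 0.05, 2 members were lower in HFD, Cish and Ptpn1, and 0 were higher, against 4.03% and 6.52% of all rows. The groups did not overlap for 1 member, Cish, with all 4 HFD libraries below all 4 controls, as for 3.09% of all rows; 7.85% of all rows did not overlap in either direction. Differences were positive for 5 members and negative for 5, where 60.1% of all rows were positive, with a median of -0.0024 beside 0.12 over all tested rows. On the deposited scale all 10 differences were positive, as were 89.9% of all rows, with a median of 0.85 beside 0.90. There too 0 members were called, against 0.0584% of all rows (0.0474% higher and 0.0109% lower). At an unadjusted p under 0.05 the count was 0, against 9.61% of all rows (9.25% higher and 0.358% lower). The groups did not overlap for 1 member, Lepr, against 7.93% of all rows (0.106% with HFD below).

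**Figure D2:**
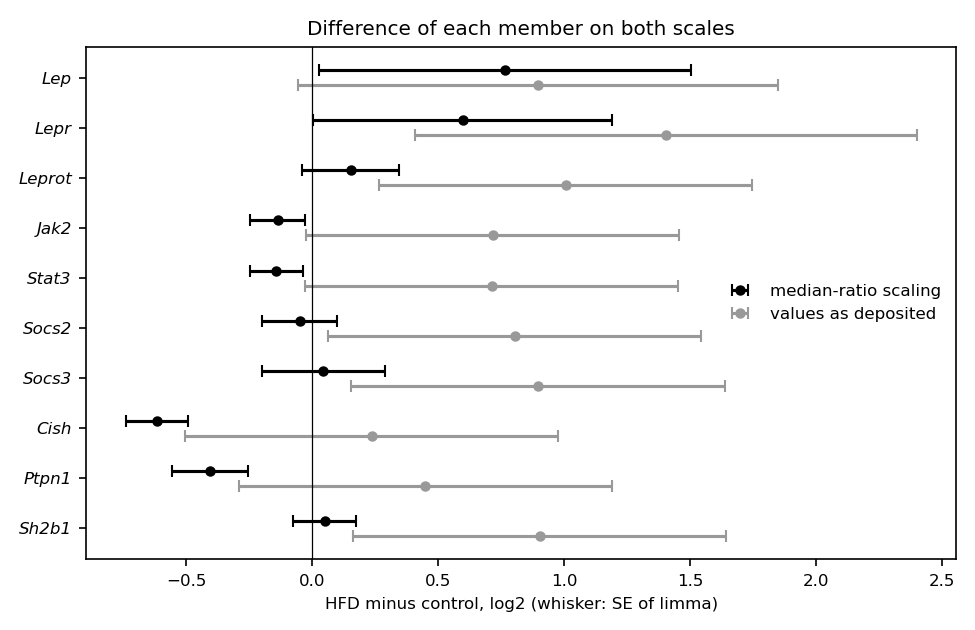
Difference between HFD and control libraries (horizontal axis, log2) for each member, with the SE of limma as whisker, after median-ratio scaling (black) and as deposited (grey). After scaling Cish at -0.62 lies farthest below 0, while on the deposited scale all 10 points are positive.

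The ligand Lep (chromosome 6, 29060220 to 29073877, plus strand, mm10) was at the limit of detection. It was listed at 0.05, 2.23, 0.42 and 1.54 on the deposited log2 scale in HFD 22, 23, 26 and 27, which corresponds to 1.0, 4.0, 1.67 and 3.0 times the estimated worth of 1 read. That unit may differ between libraries, so these multiples are not read counts. Control 15-17-18, 19 and 20 were listed at 0, and control 16 had the highest value of all 8, at 2.96, or 6.85 times the worth of 1 read. Thus a trace was listed in all HFD libraries and in 1 control, and that control lay above every HFD library. The difference after scaling was 0.77 ± 0.74 (SE, limma adjusted p = 0.71). Without control 16 all remaining controls were at 0, and the row passed the filter through the HFD libraries alone. The groups then stood apart by construction, so the difference there, 1.40 ± 0.60 (SE, limma adjusted p = 0.44), tests nothing. No linear fold is given at this depth. Fat cell markers were mixed. Adiponectin (Adipoq) was at 0 in 2 HFD and 2 control libraries, adipsin (Cfd) in 2 and 3, and resistin (Retn) in 3 and 1. Adrb3 was at 0 in 1 control library. Plin1 ran from 0.87 to 5.13 and Cidec from 4.72 to 7.10 over the 8 libraries. Lipe and Fabp4, which other cells also express, made most of the summed adipocyte level of 9.37 to 9.51 in HFD and 9.11 to 9.59 in control libraries. Chief cell markers, whose cells can make leptin, summed to between 21.06 and 21.54 in HFD and between 20.08 and 21.26 in control. Differences of these markers were positive for 7 of 7, beside 60.1% of all rows, with 0 called. The part of these markers in the Lep values was not tested.

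The receptor gene Lepr (chromosome 4, 101717404 to 101815352, plus strand) was measured by few reads, and its comparison turned on 1 library. Its levels were 4.14, 4.38, 4.09 and 4.56 in HFD 22, 23, 26 and 27, and 4.97, 3.11, 3.25 and 3.46 in control 15-17-18, 16, 19 and 20. The HFD libraries formed a narrow band that 3 controls lay below and 1 control lay above. The difference was 0.60 ± 0.60 (SE; limma adjusted p = 0.72). Without control 15-17-18 it was 1.02 ± 0.49, with all HFD libraries above the remaining controls and a limma adjusted p of 0.61, so the value moved by over 1.5 times while remaining uncalled.

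As deposited, Lepr read 4.36, 4.81, 4.48 and 4.92 in HFD and 2.64, 3.60, 2.76 and 3.55 in the controls in the same order. On that scale all HFD libraries lay above all controls, as for 7.82% of all rows, with a difference of 1.40 ± 0.997 (SE; limma adjusted p = 0.50). The values equal 19.9, 23.9, 27.9 and 31.3 times the worth of 1 read in HFD, and 9.0, 10.7, 3.0 and 20 times in control. By this estimate, whose unit may differ between libraries, the high scaled value of control 15-17-18 stands for about 9 reads. The low deposited value of control 19 stands for about 3. The table has 1 value for the gene, whose 4 protein-coding transcripts in GENCODE M21 are not separated, so the long signalling form cannot be told from the short ones.

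Leprot (chromosome 4, 101647718 to 101659364, plus strand), which encodes a small membrane protein of endosomes that limits surface display of the leptin receptor, lies upstream of Lepr, with 58039 bases between the 2 genes in GENCODE M21. Its levels were 10.17, 10.28, 10.23 and 10.12 in HFD and 9.44, 10.07, 10.31 and 10.36 in control 15-17-18, 16, 19 and 20. The HFD libraries lay inside the range of the controls, whose spread came mostly from the low value of control 15-17-18. The difference was 0.15 ± 0.19 (SE; limma adjusted p = 0.78), and -0.05 ± 0.11 without control 15-17-18. Within a library, where a scaling factor acts only through the pseudocount, the log2 ratio of Lepr to Leprot was -6.02, -5.90, -6.14 and -5.56 in HFD and -4.47, -6.96, -7.06 and -6.91 in the controls. Again the HFD libraries lay above 3 controls and below control 15-17-18, where Lepr was high and Leprot low; without that control the groups stood apart, with a difference of 1.07 in place of 0.44. Quantile normalization, which is no single factor, gave 0.27. Against Leprot, 2.12% of all tested rows had all HFD ratios above and 1.92% all below.

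The kinase, the transcription factor and the adaptor showed small differences between the diets, none of them called. Jak2 (chromosome 19, 29251828 to 29313080, plus strand) was at 9.99, 9.97, 9.90 and 9.94 in HFD and 10.21, 10.17, 9.88 and 10.07 in control 15-17-18, 16, 19 and 20. The HFD libraries formed a narrow band below 3 of the controls, but not below control 19. The difference was -0.14 ± 0.11 (SE; limma adjusted p = 0.66). Stat3 (chromosome 11, 100885098 to 100939540, minus strand) was at 11.33, 11.58, 11.31 and 11.28 in HFD and 11.51, 11.55, 11.38 and 11.62 in control. HFD 23 lay among the controls and the other HFD libraries just below them. The Stat3 difference was also -0.14 ± 0.11 (SE; limma adjusted p = 0.64), or -0.21 ± 0.11 without HFD 23 (adjusted p = 0.62), where the groups stood apart, and 72 bases of its gene overlap Stat5a on the other strand. The log2 ratio of Jak2 to Stat3 was -1.42 ± 0.13 in HFD and -1.43 ± 0.11 in control (SD over 4 libraries), so the pair differed between the diets by 0.0057, far less than the spread. Sh2b1, the activating adaptor (chromosome 7, 126466994 to 126475424, minus strand), was at 10.20, 9.97, 9.97 and 10.04 in HFD and 9.88, 9.87, 9.95 and 10.27 in control. The HFD libraries lay above 3 controls and below control 20, and the difference was 0.05 ± 0.12 (SE; limma adjusted p = 0.89).

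**Figure D3:**
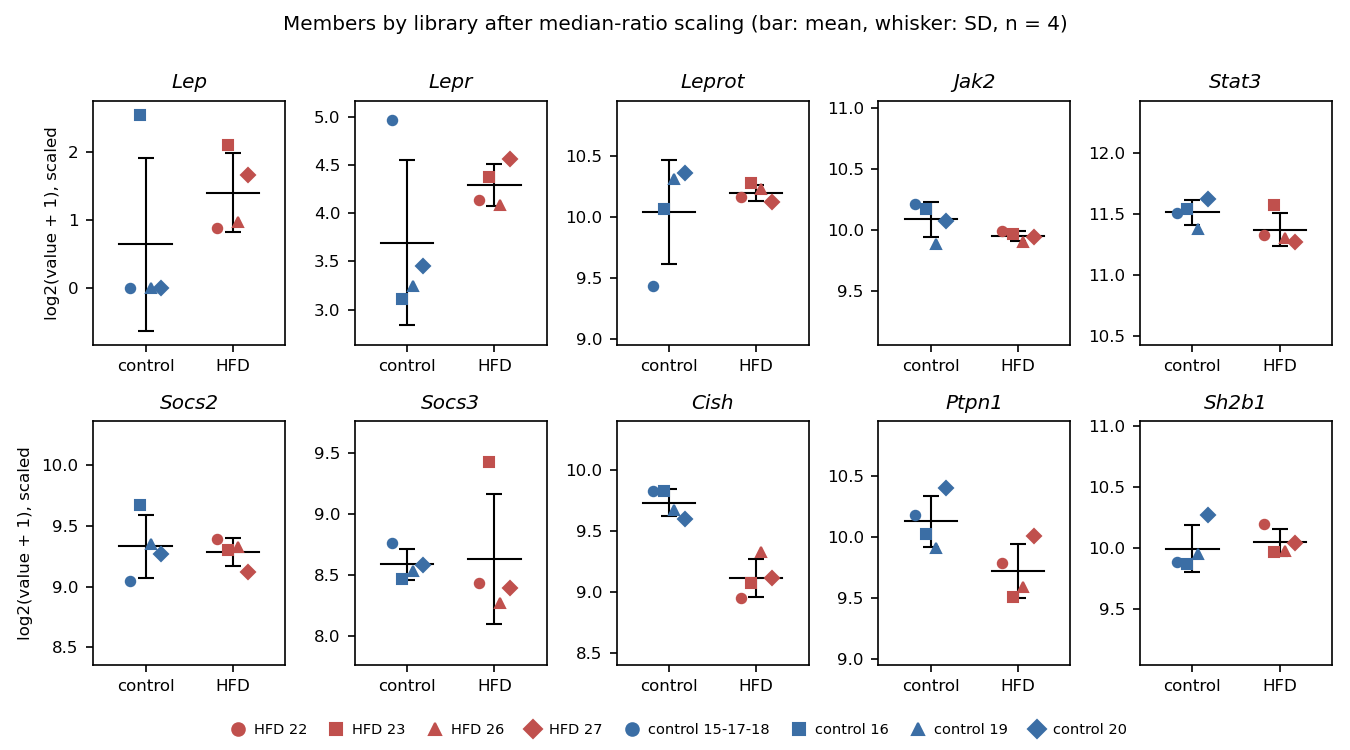
Level of each member (vertical axes, log2 of scaled value plus 1; each panel spans at least 2 log2 units and has its own range) in 4 control (blue) and 4 HFD (red) libraries, with group mean (bar) and SD (whisker). Among these panels only that of Cish has all 4 HFD points below all 4 control points, and control 15-17-18 stands high for Lepr and low for Leprot.

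Among the brakes, Cish stood apart from the other members. It encodes CIS, a SOCS family inhibitor best known as a target and brake of STAT5 (chromosome 9, 107296026 to 107302784, plus strand). Its levels were 8.95, 9.08, 9.33 and 9.12 in HFD 22, 23, 26 and 27 and 9.83, 9.83, 9.68 and 9.60 in control 15-17-18, 16, 19 and 20. The highest HFD library was below the lowest control. The difference was -0.62 ± 0.12 (SE), a linear ratio of 0.652, with a limma adjusted p of 0.19 over all rows, and so it was not called. With any 1 library left out the difference lay between -0.69 and -0.56, with limma adjusted p between 0.16 and 0.54.

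The Cish difference depended on how libraries were scaled. As deposited it was 0.24 ± 0.74 (SE; limma adjusted p = 0.83), with values of 9.26, 9.58, 9.81 and 9.53 in HFD and 7.55, 10.50, 9.34 and 9.83 in control. The groups overlapped there, with control 15-17-18 below every HFD library and control 19 inside their range. With the deposited scale and control 15-17-18 left out it was -0.35 ± 0.31 (SE; limma adjusted p = 0.81), again with overlap, and with a common total that omits the 20 most abundant rows it was -0.37 ± 0.22 (adjusted p = 0.54), also with overlap. After quantile normalization it was -0.66 ± 0.14 (limma adjusted p = 0.19), without overlap. The median of all tested rows moved with the scaling too. That median was 0.12 after median-ratio scaling, 0.90 as deposited and 0.32 as deposited without control 15-17-18. With a common total that omits the 20 most abundant rows it was 0.35, and after quantile normalization 0.03. In each of these settings the Cish difference lay below the median of all tested rows.

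Ratios within a library do not depend on its scaling factor, apart from the pseudocount, though quantile normalization can alter them. The log2 ratio of Cish to Jak2 was -1.04, -0.89, -0.57 and -0.82 in HFD and -0.39, -0.34, -0.21 and -0.47 in control 15-17-18, 16, 19 and 20. All HFD ratios were below all control ratios, a pattern that 1.41% of all tested rows showed against Jak2, with 7.09% showing the reverse. The ratio of Cish to its relative Socs2 was -0.44, -0.22, 0.0042 and -0.0059 in HFD and 0.78, 0.16, 0.33 and 0.34 in control, also without overlap, as for 0.617% of tested rows against Socs2, with 4.9% in reverse. Against Stat3 the groups touched: HFD ratios ran from -2.50 to -1.98 and control ratios from -2.02 to -1.68, with HFD 26 above control 20. They stood apart without either of those libraries and after quantile normalization, and 0.927% of tested rows lay wholly below and 6.98% wholly above against Stat3. Against Socs3 they also overlapped, from -0.35 to 1.06 in HFD and from 1.02 to 1.36 in control, but not without HFD 26 or without control 20. Of the 11 pairs of members compared in this way, only Cish to Jak2 and Cish to Socs2 had groups that did not overlap; no p is given for them.

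**Figure D4:**
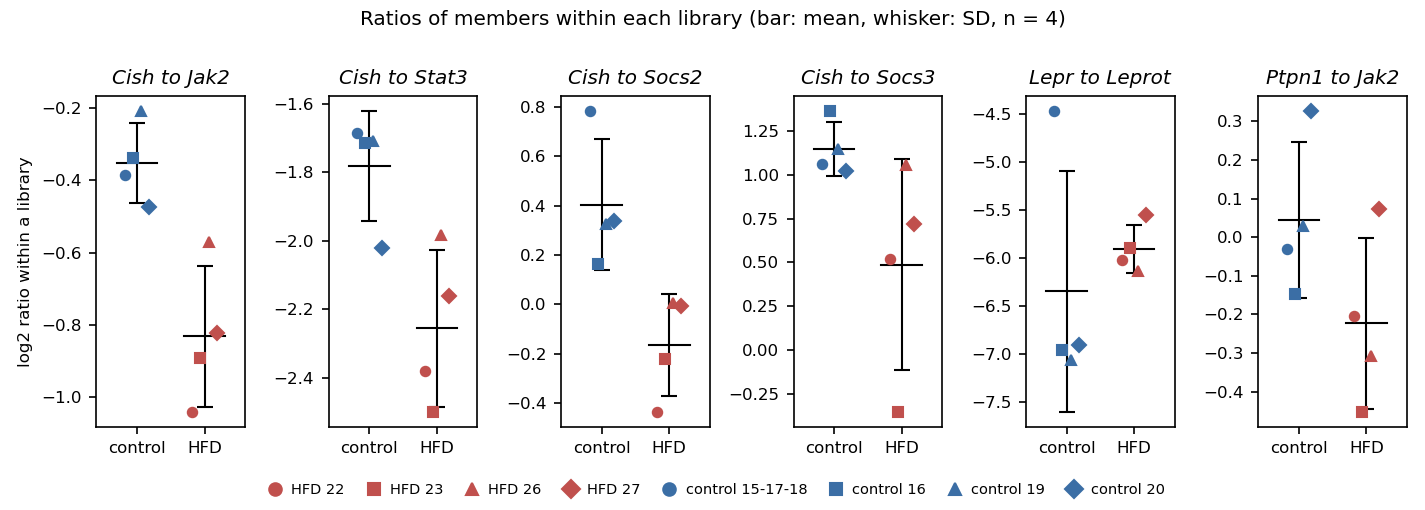
Log2 ratio of 2 members within each library (vertical axes, each with its own range) in control (blue) and HFD (red) libraries, with group mean (bar) and SD (whisker). Cish to Jak2 and Cish to Socs2 separate the groups, and in the ratio of Lepr to Leprot control 15-17-18 lies above all other libraries.

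The annotation around Cish limits its reading in 1 respect. In GENCODE M21 its gene overlaps the antisense gene Gm17041 over 1459 bases and the pseudogene Gm17040 over 1167 bases, both on the other strand. Whether the counting used strand is not given in the sources used here, so reads of these genes cannot be told from reads of Cish. Immune cells can also express Cish. Immune markers summed to 7.56, 7.55, 7.05 and 7.47 in HFD and 8.07, 7.35, 6.91 and 6.70 in control 15-17-18, 16, 19 and 20, overlapping between the diets. Of the 8 immune markers 6 had positive differences, beside 60.1% of all rows, and 0 were called. The part of these markers in the Cish values was not tested.

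The other SOCS genes did not share the Cish pattern. Socs2 (chromosome 10, 95385362 to 95417180, minus strand), a brake on growth hormone signalling, was at 9.39, 9.30, 9.32 and 9.12 in HFD and 9.05, 9.67, 9.35 and 9.26 in control. The controls bracketed all HFD libraries, and the difference was -0.05 ± 0.15 (SE; limma adjusted p = 0.92). Socs3 (chromosome 11, 117966079 to 117970047, minus strand), the chief brake on leptin and interleukin 6 signalling, was at 8.43, 9.43, 8.27 and 8.39 in HFD 22, 23, 26 and 27 and 8.76, 8.47, 8.53 and 8.58 in control. HFD 23 had the highest level of all 8 libraries, while the other 3 HFD libraries lay below every control. The difference was 0.04 ± 0.24 (SE; limma adjusted p = 0.95) with HFD 23 and -0.22 ± 0.15 (limma adjusted p = 0.71) without it, where the groups did not overlap.

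Ptpn1 (chromosome 2, 167932057 to 167979385, plus strand) was the other member with an unadjusted p under 0.05. Its levels were 9.79, 9.51, 9.59 and 10.01 in HFD and 10.18, 10.03, 9.91 and 10.40 in control 15-17-18, 16, 19 and 20. HFD 27 lay above control 19, so the groups overlapped. The difference was -0.40 ± 0.15 (SE; limma adjusted p = 0.39). The unadjusted p was above 0.05 without HFD 23 (-0.33), HFD 26 (-0.36) or control 20 (-0.31), without the trend and robust options, and with sample quality weights (-0.26). With a common total that omits the 20 most abundant rows the difference was -0.16. As deposited it was 0.45 ± 0.74 (SE; adjusted p = 0.67). The log2 ratio of Ptpn1 to its substrate Jak2 had a mean of -0.22 ± 0.22 in HFD and 0.05 ± 0.20 in control (SD over 4 libraries), with overlap, but not without HFD 27.

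The other genes of the pathway were read from 7 lists, chosen with earlier results of these data known. Of 79 genes 78 were tested, and 0 were called (limma, adjusted over all rows). At an unadjusted p under 0.05, 5 were higher and 7 lower, 6.41% and 8.97%, beside 6.52% and 4.03% of all rows. The groups stood apart for 4 upward and 5 downward, beside 4.76% and 3.09% of all rows. Differences were positive for 40 and negative for 38, with a median of 0.01 beside 0.12 over all rows.

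Among the 9 JAK and STAT relatives, 2 were higher at an unadjusted p under 0.05 and 0 lower, beside 6.52% and 4.03% of all rows. The median of the list was 0.05, or -0.014 without control 16 and -0.018 without control 19. Stat4, a factor of lymphocytes, was at 4.92 ± 1.85 in HFD and 2.07 ± 1.52 in control (SD over 4 libraries; limma adjusted p = 0.41), with overlap. Stat6, the most abundant of the list, was at -0.03 ± 0.09 (SE).

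Of the 14 other SOCS, PIAS and phosphatase genes, 2 were lower at an unadjusted p under 0.05 and 0 higher, beside 4.03% and 6.52% of all rows. The list had a median of 0.05. The sign of that median turned on single libraries, with -0.18 without HFD 23, -0.13 without control 20 and -0.10 without control 16, and quantile normalization gave -0.06. Ptpn12, a tyrosine phosphatase, was at 8.20 ± 0.22 in HFD and 8.81 ± 0.24 in control (SD over 4 libraries; limma adjusted p = 0.28). Pias2, a SUMO ligase that binds STAT proteins, was at 8.76 ± 0.09 and 9.21 ± 0.23 (SD; limma adjusted p = 0.31). In both all HFD libraries lay below all controls on the scaled levels, as for 3.09% of all rows. On the deposited scale their differences had the opposite sign, at 0.25 and 0.40. Ptpn11, the phosphatase SHP2 that links the receptor to the MAP kinase branch, was the most abundant, at -0.25 ± 0.14 (SE) and -0.11 without control 15-17-18.

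The 13 adaptors and downstream kinases had a median of -0.22, beside 0.12 over all rows. Differences were negative for 11 and positive for 2, where 60.1% of all rows were positive. At an unadjusted p under 0.05, 3 were lower, beside 4.03% of all rows. Sos1, the exchange factor that activates Ras, was at 8.45 ± 0.18 in HFD and 9.25 ± 0.39 in control (SD over 4 libraries; limma adjusted p = 0.24). Irs2, the insulin receptor substrate that also joins leptin signalling to phosphoinositide 3-kinase, was at 9.77 ± 0.19 and 10.20 ± 0.22 (SD; limma adjusted p = 0.35). In both all HFD libraries lay below all controls, as for 3.09% of all rows. On the deposited scale both differences were positive, at 0.055 and 0.42. Pik3r1, the regulatory subunit of that kinase, was at -0.24 ± 0.18 (SE), with -0.07 without control 15-17-18 and -0.38 without control 16. The median of this list lay at -0.12 without control 15-17-18 or control 20, -0.13 without control 19 and -0.14 without HFD 26. It was 0.64 as deposited and 0.03 with a common total that omits the 20 most abundant rows.

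Of the 14 receptors of other JAK-STAT cytokines, 10 differences were positive, beside 60.1% of all rows. The list had a median of 0.25, and 1 gene was higher at an unadjusted p under 0.05, beside 6.52% of all rows. Ghr, the growth hormone receptor, was at 10.45 ± 0.21 in HFD and 10.13 ± 0.17 in control (SD over 4 libraries; limma adjusted p = 0.45), with overlap. Ifngr1, a chain of the interferon gamma receptor, ran from 10.71 to 10.87 in HFD and from 10.33 to 10.70 in control, without overlap (limma adjusted p = 0.50). All HFD libraries lay above all controls for 4.76% of all rows. Il6st, the shared signalling chain gp130, was at -0.09 ± 0.14 (SE), with -0.21 without HFD 23 and -0.04 without control 15-17-18. In the list of receptor trafficking, with 6 genes, the sorting receptors Sorl1 and Sort1 were at -0.38 ± 0.15 and -0.12 ± 0.10 (SE; limma adjusted p = 0.43 and 0.66).

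The 18 STAT3 and STAT5 target genes divided evenly, with 9 positive and 9 negative differences, where 60.1% of all rows were positive. The list had a median of -0.05. That median turned on single libraries, from -0.27 without HFD 23 to 0.08 without control 20, and was -0.26 with the filter at 10. Reg3g, an antimicrobial lectin, ran from 4.37 to 6.46 in HFD and from 0 to 3.63 in control (limma adjusted p = 0.27). Bcl2l1, which encodes the survival protein BCL-XL, ran from 10.06 to 10.29 in HFD and from 10.42 to 10.68 in control (-0.35 ± 0.11, SE; limma adjusted p = 0.32), with 0.50 as deposited. These 2 genes separated the groups in opposite directions, 1 of 18 each way, beside 4.76% of all rows upward and 3.09% downward. Fos, an immediate early gene and the most abundant of the list, was at -0.56 ± 0.32 (SE) and -0.88 without HFD 23. Of 5 hypothalamic peptides that leptin regulates in the brain 4 were tested, all low on average. All 4 differences were positive, beside 60.1% of all rows. Npy was at 1.61 ± 0.32 in HFD and 0.32 ± 0.64 in control, and Agrp at 1.41 ± 0.63 and 0.75 ± 0.54 (SD over 4 libraries, limma adjusted p = 0.46 and 0.69). Pomc was at 2.98 ± 1.31 and 2.47 ± 2.28 (SD, limma adjusted p = 0.89), and reached 5.48 in its highest control. The Npy groups did not overlap, with HFD above as for 4.76% of all rows, and controls from 0 to 1.28. Such a row can pass the filter only with its HFD libraries, so its positive difference and lack of overlap partly follow from the filter.

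**Figure D5:**
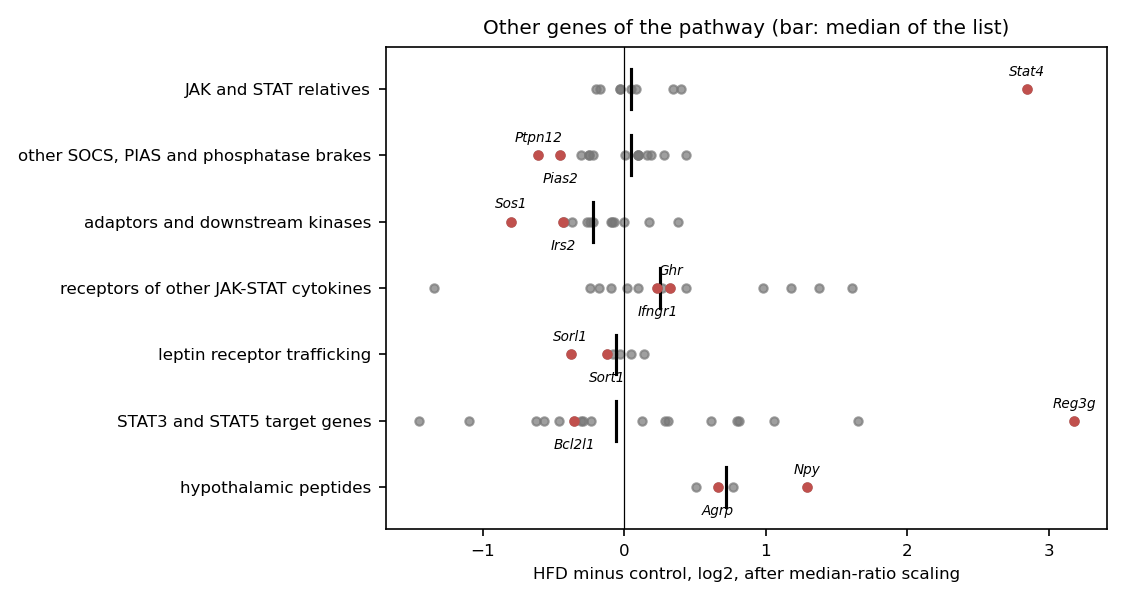
Difference between HFD and control libraries (horizontal axis, log2, after median-ratio scaling) of each tested gene in 7 lists, 1 point per gene, with the list median as a bar; red points are the labelled genes, named for the smallest p in their list. None of the 78 points passed the adjusted threshold. The adaptor list has 11 of 13 points below 0, where 60.1% of all tested rows lie above 0.

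Of 13 lists of cell type markers, the summed level of 1 did not overlap between the diets. Smooth muscle markers summed to between 11.35 and 12.01 in HFD and between 8.71 and 10.75 in control, without overlap. Of these markers 6 of 6 had positive differences, beside 60.1% of all rows, with 0 called and all 6 above 0 in every library. Squamous forestomach markers summed to between 11.01 and 12.28 in HFD and between 6.41 and 11.16 in control, with Sprr3 at 0 in 1 HFD and 2 control libraries. Tuft cell markers summed to between 12.30 and 12.89 in HFD and between 12.20 and 13.83 in control, the highest being control 15-17-18. The summed levels of parietal, surface mucous, mucous neck, enteroendocrine, fibroblast and endothelial markers overlapped between the diets, and 0 genes of the 13 marker lists were called. A sum follows its most abundant genes, and single markers could stand apart. Muc5ac ran from 15.58 to 15.97 in HFD and from 16.48 to 18.31 in control. The chief cell genes Cblif, Bhlha15 and Cckar lay wholly higher in HFD. Other surface mucous and chief cell markers overlapped. Of all rows 4.76% lay wholly above and 3.09% wholly below. The part of these markers in the values of the 10 members was not tested. In RNA of a cell mixture, fewer cells of a type and less RNA per cell cannot be told apart.

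The rows whose levels most resembled Lepr over the 8 libraries were Kif22 (Pearson r = 0.98), Hirip3 (0.97) and Nfxl1 (0.96), out of 15275 candidates with a symbol and a mean level of at least 5. Without control 16, the library farthest from the Lepr median, r was 0.98, 0.95 and 0.95. For Socs3 they were Cacna2d2, Ago2 and Tarbp1 (r = 0.99, 0.99 and 0.98), with r = 0.96, 0.90 and 0.92 without HFD 23. With 8 libraries and so many candidates such values are a description only.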

How the data were processed

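RNA of sorted gastric epithelial cells was sequenced from 4 HFD and 4 control libraries, assigned by title. Per the labels' protocols, total RNA was treated with DNase, depleted of ribosomal RNA and made into libraries with an Ion Total RNA-Seq kit. The submitters' processing notes name mm10 and bedtools 2.17.0; for aligner, annotation, strand use and normalization the record is silent: not given in the sources used here. The values deposited by the authors, headed normalize or normalized per the file headers, were taken to be log2, because their antilogs, with 0 kept as 0, sum to 36.9 M in every library, within 0.0039%.

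Each library was then divided by its median ratio to the geometric row means of 11115 rows that exceeded 30 in every library. Rows whose deposited linear value reached 1 in 4 or more libraries entered limma 3.58.1 under R 4.3.3 (trend, robust) as log2(value + 1), with the diet as the only term, Benjamini-Hochberg adjustment over all 27401 rows and a threshold of 0.05. The method was tested on simulated data. For low genes the pseudocount shrinks the fold change. The worth of 1 read was the smallest gap between the 5 most frequent low values; 23.9% to 34.7% of values were whole multiples of it within 0.01, so no count model was used.

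Symbols came from RefSeq (GRCm38.p6), which matched 32891 rows, and coordinates and exon lengths from GENCODE M21, counted from 1. All 10 members are named; of each pathway list the 2 genes with the smallest p and the most abundant one are named, and for Lepr and Socs3 the 3 rows most correlated with them; 1 gene that the rule names is not reported here. In all, 7 pathway lists and 13 marker lists were read. Members and lists were chosen with earlier results of these data known. Alternatives were other scalings, a pseudocount of 10, other filters and limma options, and each library left out; the deposited scale without control 15-17-18 was chosen after seeing the data.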

Additional observations from a re-analysis of the deposited data

Results flagged for a closer look

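Of the 20 groups of 4 library values checked for the members, 2 held a value far from the rest of its group; chance flags about 1 in 20 groups. Socs3 was at 9.43 in HFD 23, against 8.27 to 8.43 in the other HFD libraries, with the gap making up 0.86 of the range. Lep was at 2.56 in control 16 after scaling, while the other 3 controls were listed at 0, a value resting on 6.85 times the estimated worth of 1 read. With the other controls at 0 any value above 0 would be flagged, so the chance rate does not apply to this group.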

How the results depend on the processing

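No paired analysis was possible because the groups share no replicate number. Over 17 alternatives the count of members called stayed at 0. Of 169 member values under the alternatives, 151 kept their direction and 18 changed it, and 0 passed the threshold. Lep and the median of the hypothalamic list have no value with the filter at 10. The 3 rows called among all became 16 on the deposited scale, 1 with a common total that omits the 20 most abundant rows, 1 without the trend and robust options, 21 with sample quality weights, 0 on the deposited scale without control 15-17-18, and 0 to 4 with 1 library left out, 0 being without control 19 or control 20. As deposited, differences turned positive for Jak2 (0.72), Stat3 (0.71), Socs2 (0.80), Cish (0.24), Ptpn1 (0.45), Bcl2l1 (0.50), Fos (0.29), Il6st (0.76), Irs2 (0.42), Pias2 (0.40), Pik3r1 (0.61), Ptpn11 (0.61), Ptpn12 (0.25), Sorl1 (0.48), Sort1 (0.73), Sos1 (0.055) and Stat6 (0.83). Without the 20 rows they turned positive for Jak2 (0.11), Stat3 (0.10), Socs2 (0.20), Il6st (0.15), Pik3r1 (0.0057), Ptpn11 (0.00089), Sort1 (0.13) and Stat6 (0.22), and as deposited without control 15-17-18 for Jak2 (0.14), Stat3 (0.095), Socs2 (0.094), Il6st (0.20), Pik3r1 (0.16), Ptpn11 (0.13), Sort1 (0.12) and Stat6 (0.20). Quantile normalization gave -0.038 for Socs3 and 0.027 for Stat6, and sample quality weights gave -0.10 for Socs3. With 1 library left out the range was -0.051 to 0.26 for Leprot, -0.14 to 0.064 for Socs2, -0.22 to 0.16 for Socs3, -0.00064 to 0.14 for Sh2b1 and -0.31 to 1.51 for Pomc. The median of all tested rows was 0.90 as deposited, 0.35 without the 20 rows and 0.32 as deposited without control 15-17-18. It was 0.12 after median-ratio scaling. In those 3 settings each difference listed above as positive lay below the median of its setting. The cause of the changes in sign was not tested. Of the alternatives that change the levels, the Cish groups stood apart with quantile normalization and a pseudocount of 10, and overlapped as deposited, as deposited without control 15-17-18 and without the 20 rows. Overlapping ratios came to stand apart for Lepr to Leprot and Lepr to Jak2 (0.73, or 1.12 without control 15-17-18), and for Cish to Stat3, Cish to Socs3 and Ptpn1 to Jak2 as given above; filters and limma options do not act on ratios. Depth limits Lep and Lepr, which rest on few reads.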
